A study of Mus musculus with 2 samples.

Results

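The genes described are 10 members of the Notch signalling pathway, out of 32285 genes in the deposited matrices, taken by symbol. They are the receptors Notch1, Notch2 and Notch3, the ligands Dll1, Dll4 and Jag1, and the transcriptional targets Hes1, Hes5, Hey1 and Heyl. Their levels were read from single-cell RNA libraries of mouse hippocampus in which only the 5′ end of each transcript is counted. Each molecule is tagged by a unique molecular identifier (UMI). One library came from wild-type mice and the other from mice labelled Crlf3-mutant, carrying the L389P change in the cytokine receptor-like factor Crlf3. For each genotype, 4 hippocampi from 2 untreated mice aged 4 weeks were pooled before dissociation, debris and myelin removal, and sorting of live cells. No label ties a cell to a mouse, and strain and sex were not given in the sources used here. With 1 library per genotype there is no replicate, no test of genotype and no p-value, and the intervals given are 95% intervals for counting error alone.

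Notch receptors are cut by proteases after a ligand on a neighbouring cell binds them. The freed intracellular part enters the nucleus and joins the DNA-binding protein RBPJ to switch on the Hes and Hey repressors. In the hippocampus this signalling is known for holding radial glia-like stem cells in the undifferentiated state. In vessels, Dll4, Notch1 and Hey1 are known for arterial identity, and Notch3 with Jag1 for the coat of mural cells, which are pericytes and smooth muscle cells.

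Hes5 is the member whose values turn most on how cells are grouped, so its promoter is shown. The stretch is the 250 bases before the transcription start at chr4:154960673-154960922 on the plus strand, from RefSeq on build GRCm38.p6. Capitals mark the core bound by RBPJ, TGGGAA, and its reverse complement TTCCCA.
Hes5: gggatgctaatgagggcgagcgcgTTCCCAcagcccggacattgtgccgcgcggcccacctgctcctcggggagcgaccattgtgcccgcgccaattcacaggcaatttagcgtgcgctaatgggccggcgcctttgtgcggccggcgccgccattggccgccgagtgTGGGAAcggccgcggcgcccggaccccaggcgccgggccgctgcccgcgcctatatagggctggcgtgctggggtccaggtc
The core begins 226 bases before the start in the reverse orientation and 82 bases before it in the forward orientation. Of 32851 promoter windows of the same length, 7094 (21.6%) held the core on either strand and 419 (1.28%) held both orientations. Windows were available for 7 of the 10 members, and not for the other targets Hes1, Hey1 and Heyl. Hes5 was the 1 member of the 7 whose window held the core, and the rest of the 7 were receptors and ligands. A match describes letters and not a bound site.

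The libraries held 7713 wild-type and 5720 Crlf3-mutant barcodes, of which 7109 and 5275 cells were kept, with median depths of 6193 and 7385 UMIs. The same barcode occurred in both libraries 64 times. Cells were placed in classes by marker genes that included no member. The wild-type and mutant gates held 767 and 482 astrocytes, 45 and 59 cycling neural progenitors, 106 and 138 neuroblasts, 808 and 798 endothelial cells, and 122 and 164 mural cells. Every marker of these classes was detected in its own gate in both libraries. A gate is a range of a marker score, and shares of classes depend on dissociation and the sort. Crlf3, whose level does not show a base change, was within counting error in the astrocytes of both libraries, at 79.0 and 79.2 counts per 1000000 UMIs of the gate (CPM, the unit of every level below). Choroid plexus markers differed between libraries in the other gates, summing to 223 CPM in the wild-type astrocyte gate and to 34.7 CPM in the mutant one.

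Levels of the members differed between classes, and that layout was alike in both libraries. Notch3 and Heyl were mural, Dll4 was mainly endothelial, Dll1 was mainly in progenitors, and Hes5 was in astrocytes and some progenitors. Hes1 was in vessel cells and astrocytes and Hey1 in endothelium and astrocytes. Notch1 was found in all 5 classes.

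**Figure D1:**
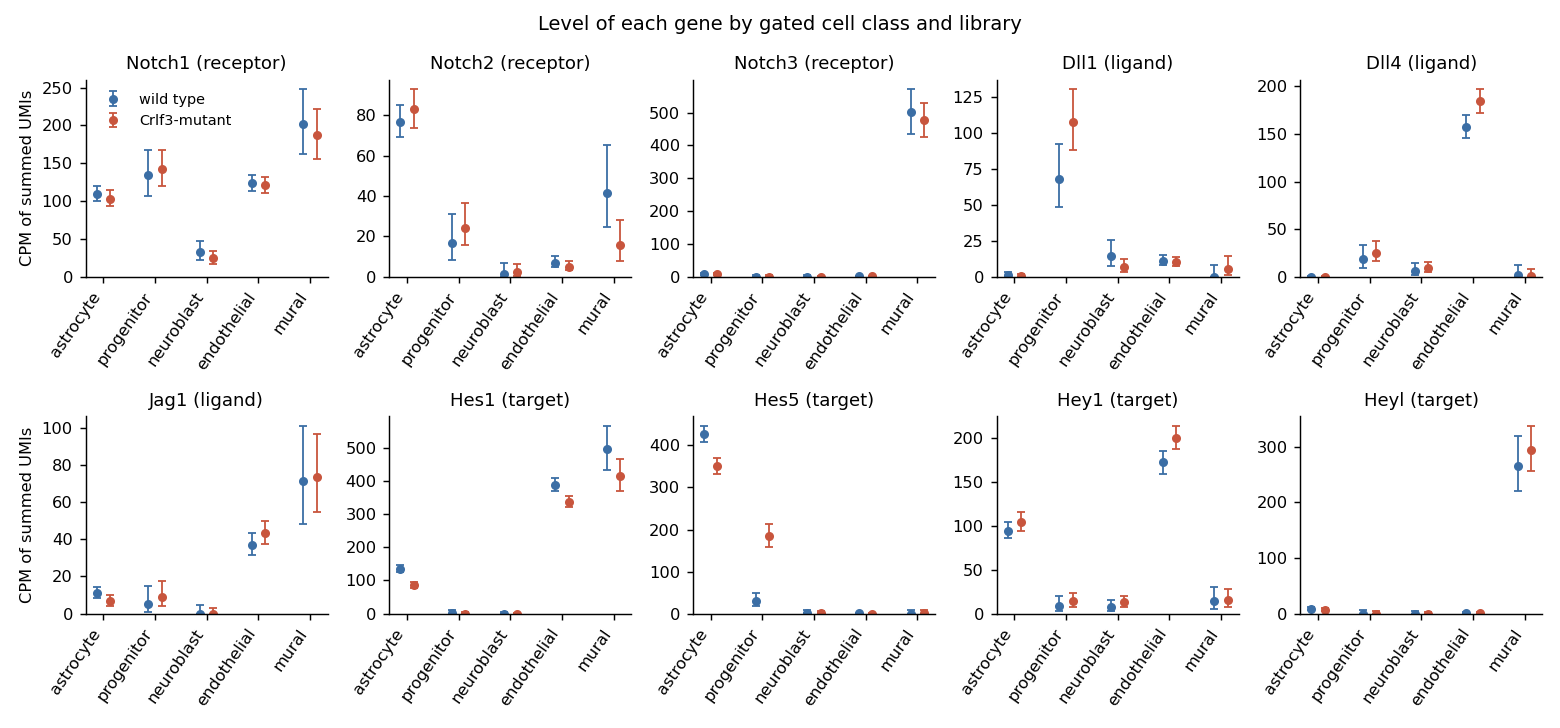
CPM of summed UMIs for each gene in 5 gated classes (horizontal axis), with wild type in blue and Crlf3-mutant in red; bars are exact Poisson 95% intervals and each panel has its own vertical scale from 0. Notch3 and Heyl stand out in mural cells, Dll4 in endothelial cells and Dll1 in progenitors, and the largest gap between libraries is Hes5 in progenitors (30.6 and 184 CPM).

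Notch1 (chr2:26457903-26516663, minus strand, build mm10) was highest in mural cells, at 202 CPM in wild type (interval 162 to 249) and 187 CPM in the mutant (156 to 222). Progenitors followed at 134 and 142 CPM, endothelial cells at 124 and 121 CPM, and astrocytes at 110 and 103 CPM. Intervals of mural cells and progenitors overlapped, as did those of progenitors and endothelial cells. Neuroblasts were lowest at 32.9 and 24.6 CPM. The fall from progenitors to neuroblasts was larger than the counting error in both libraries. Choroid plexus cells, whose median depths of 10134 and 11693 UMIs exceed those of the astrocytes, held 1.86 and 2.22 CPM.

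Notch2 (chr3:98013527-98150361, plus strand) was highest in astrocytes, at 76.9 CPM in wild type (69.1 to 85.3) and 83.0 CPM in the mutant (73.9 to 92.9). Progenitors held 17.0 and 24.4 CPM and neuroblasts 1.22 and 2.24 CPM, from 1 and 3 UMIs. Mural cells held 41.3 CPM in wild type (24.5 to 65.3) and 15.8 CPM in the mutant (7.89 to 28.3), from 18 and 11 UMIs, too few for the comparison between libraries used below.

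Notch3 (chr17:32120820-32166852, minus strand), the receptor of pericytes and smooth muscle, reached 500.2 CPM in wild-type mural cells and 476 CPM in the mutant ones. A UMI was present in 76.2% (exact Clopper-Pearson interval 67.7% to 83.5%) and 78.7% (71.6% to 84.7%) of those cells. Astrocytes came next at 8.66 and 7.45 CPM, and neuroblasts held no UMI in either library. In microglia, the most numerous cells, 0.0675% and 0.0615% of cells had a Notch3 UMI at median depths of 6355 and 7742 UMIs, the level against which the mural share stands.

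Dll1 (chr17:15367354-15376872, minus strand), a Delta ligand that differentiating progenitors present to their neighbours, was at 67.9 CPM in wild-type progenitors (48.5 to 92.5, 40 UMIs) and 108 CPM in mutant progenitors (88.3 to 130, 106 UMIs). Neuroblasts held 14.6 and 6.71 CPM and endothelial cells 11.4 and 10.4 CPM, and these neighbours in the order did not differ beyond counting error. Astrocytes were at 1.52 and 0.552 CPM. Among cells with neural progenitor markers, a set that includes gated neuroblasts at the lower scores, Dll1 was highest at astrocyte scores from 0.1 to 0.35. It was 185 CPM in wild type and 250 CPM in the mutant at scores of 0.1 to 0.2. It was 26.0 and 6.96 CPM at 0.35 to 0.6.

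Dll4 (chr2:119325784-119335962, plus strand), the Delta ligand of endothelium, was at 157 CPM in wild-type endothelial cells (145 to 170) and 184 CPM in mutant ones (172 to 197). Progenitors held 18.7 and 25.4 CPM. No UMI was found in the astrocyte gate of either library, where 3 counts would amount to 0.65 CPM in wild type and 0.827 CPM in the mutant.

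Jag1 (chr2:137081456-137116644, minus strand), the Serrate-type ligand, was at 71.1 CPM in wild-type mural cells and 73.3 CPM in mutant ones, and at 37.1 and 43.4 CPM in endothelial cells. Astrocytes held 11.0 and 6.62 CPM. Neuroblasts held none in either library.

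Hes1 (chr16:30064384-30067796, plus strand), a repressor of proneural genes, was highest in mural cells, at 496 CPM in wild type (432 to 566) and 415 CPM in the mutant (369 to 466). Endothelial cells held 389 and 337 CPM and astrocytes 136 and 85.0 CPM. Progenitors held 1 UMI in wild type and 0 in the mutant, and neuroblasts held 0 in both. The gated progenitors and neuroblasts thus held fewer than 3 Hes1 UMIs, while microglia held 24.5 and 21.3 CPM. The progenitor class taken from clusters (70 and 91 cells) held 14.7 CPM in wild type and 5.49 CPM in the mutant, from 13 and 8 UMIs.

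Hes5 (chr4:154960923-154962371, plus strand), a repressor that marks neural stem cells and astrocytes, was at 427 CPM in wild-type astrocytes (409 to 447) and 351 CPM in mutant ones (332 to 371). Progenitors held 30.6 CPM in wild type (18.1 to 48.3) and 184 CPM in the mutant (158 to 213). Neuroblasts held 2 UMIs in each library, and endothelial and mural cells 2 UMIs or fewer. A UMI was present in 59.3% and 61.6% of astrocytes against 0.607% and 0.154% of microglia.

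Hey1 (chr3:8663359-8667256, minus strand), a repressor of venous genes in arteries, was at 172 CPM in wild-type endothelial cells (160 to 186) and 201 CPM in mutant ones (188 to 214). Astrocytes held 94.6 and 105 CPM. Progenitors, neuroblasts and mural cells held 7.31 to 15.8 CPM in either library. Heyl (chr4:123233556-123249875, plus strand), the family member of mural cells, reached 266 CPM there in wild type, with 295 CPM in the mutant. Astrocytes held 8.01 and 6.90 CPM of Heyl, and no UMI was found in progenitors or neuroblasts.

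Libraries were then compared within each class. A gene was counted as measured where the higher library held at least 50 CPM and 30 UMIs, and as apart where the ratio of CPM + 10 was at least 1.5 in either direction. In progenitors 2 of 3 measured members were apart, Hes5 and Dll1, both higher in the mutant, where 4.6% of 4411 measured genes were apart. Hes5 counted as measured only through the mutant, since wild type held 18 UMIs and 30.6 CPM. The progenitor count and median thus include a gene let in by its own excess. In astrocytes 1 of 5 was apart, Hes1, lower in the mutant, against 0.166% of 3606 genes. None of 4 was apart in endothelial cells, against 0.0281% of 3555 genes. None of 5 was apart in mural cells, against 5.29% of 3552 genes. No member was measured in neuroblasts, where 1.16% of 4554 genes were apart. The median log2 ratio of the measured members was -0.08 in astrocytes, 0.60 in progenitors, 0.09 in endothelial cells and -0.07 in mural cells. The medians over all measured genes were 0.00, 0.01, 0.01 and 0.04.

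**Figure D2:**
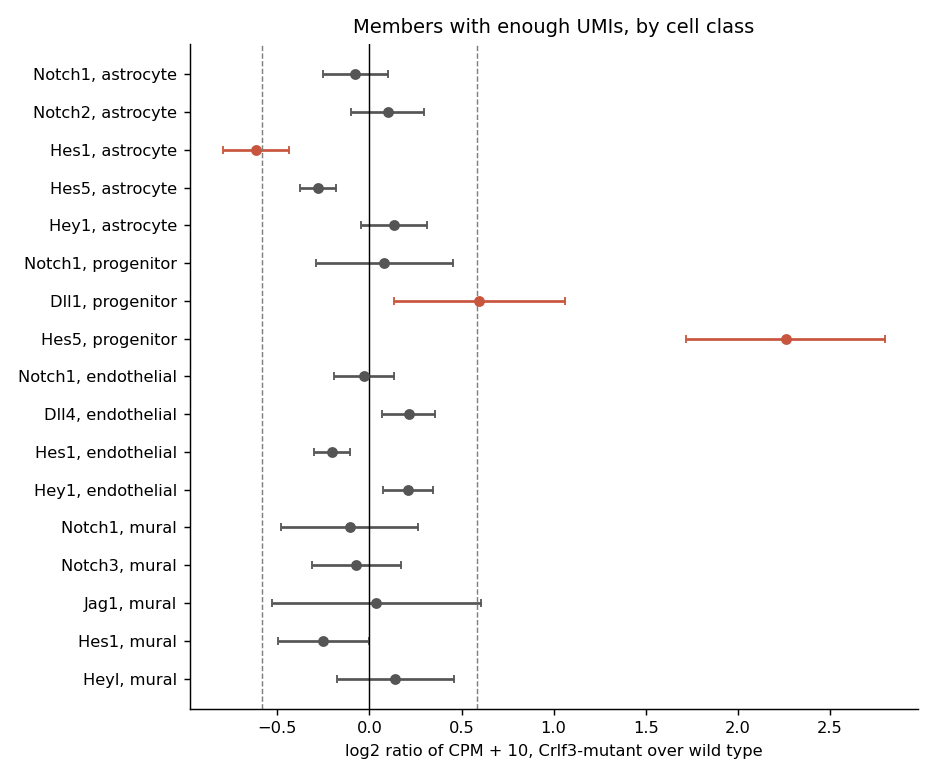
log2 ratio of CPM + 10, Crlf3-mutant over wild type (horizontal axis), for the 17 pairs of gene and class with enough UMIs; bars are 95% counting intervals, dashed lines mark 1.5-fold and red points lie beyond it. Hes1 in astrocytes lies to the left and Dll1 and Hes5 in progenitors to the right.

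Hes1 in astrocytes had 626 UMIs in wild type and 308 in the mutant, a log2 ratio of -0.62 (-0.79 to -0.44). It was below 0 in each of 14 other settings of gates, filters and scaling, from -0.73 to -0.46, and at least 1.5-fold in 8 of them. It was lower in the mutant in endothelial cells too, by a log2 ratio of -0.20 (-0.30 to -0.10), and in mural cells at -0.25 (-0.50 to -0.00), both within 1.5-fold. The endothelial value stayed below 0 in 14 of 14 other settings, but was only -0.007 with cells thinned to 2000 UMIs. The mural value was below 0 in 13 of 14 and was 0.09 with a stricter gate. A Hes1 UMI was present in 34.8% of wild-type and 37.1% of mutant astrocytes, opposite to the CPM, which gives these shares no readable order. At 2000 UMIs per cell the shares were 18.6% and 14.7%. Hes1 responds to many stimuli, so the immediate early genes, which dissociation also induces, were set beside it. Of 12 measured in astrocytes, 1 was apart, lower in the mutant (Klf4, with a log2 ratio of -0.76). Ier2 at -0.55 (-0.69 to -0.41) and Socs3 at -0.52 (-0.73 to -0.32) lay just inside the 1.5-fold line, and Fosb, Zfp36 and Junb were lower by less, at -0.28, -0.28 and -0.24. Fos at 0.20, Jun at 0.10, Jund at 0.13 and Egr1 at 0.26 were higher in the mutant beyond counting error. These genes were named after their values were seen. The summed level of the 19 listed, led by Fos, was 6054 and 6268 CPM. Astrocytes were also cut into 3 equal bins by their share of those genes. In the highest bin Hes1 was 283 CPM in wild type and 135 CPM in the mutant. In the lowest bin it was 60.1 and 59.2 CPM, and in the middle bin 69.0 and 59.4 CPM. Without the 10% of cells highest in those genes the log2 ratio was -0.27. Their part in the Hes1 difference was not tested, nor was that of the choroid plexus markers, in whose own cells Hes1 was 35.0 and 13.3 CPM. Astrocytes with Xist and no Y transcript gave a Hes1 log2 ratio of -0.49 and those with Y transcripts and no Xist gave -0.73. The median log2 ratio of the 12 measured immediate early genes was 0.57 in the former and -0.78 in the latter, against -0.09 over all astrocytes. Hes1 was lower in the mutant in both sets, and its relation to these genes was not tested there.

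Dll1 in progenitors had a log2 ratio of 0.60 (0.13 to 1.06), at the edge of the 1.5-fold line. It stayed above that line in 8 of 14 other settings and was 0.09 with classes from coarser clusters. Split by markers of intermediate progenitors, such as Eomes, Dll1 was 70.8 and 73.7 CPM in the cells rich in them. It was 62.6 CPM in wild type and 144 CPM in the mutant in the 18 and 28 cells with fewer.

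Hes5 in progenitors had 18 UMIs in wild type and 181 in the mutant, a log2 ratio of 2.26 (1.72 to 2.80). The wild-type UMIs were spread over 10 of 45 cells with at most 3 in a cell. In the mutant 18 of 59 cells held Hes5, and the 3 highest held 76, 34 and 15 UMIs. The 5 cells with at least 10 UMIs carried 148 of the 181 (81.8%). Without them, a removal that lowers the mutant by construction, the mutant stood at 37.0 CPM against 30.6 CPM in wild type. The counting interval does not cover this clumping of UMIs in few cells.

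All 5 of those cells held Y transcripts and no Xist. Progenitors with Y transcripts and no Xist held 24.8 CPM of Hes5 in 21 wild-type cells and 271 CPM in 35 mutant cells. Progenitors with Xist and no Y transcript held 41.2 CPM in 16 wild-type cells and 49.7 CPM in 19 mutant cells. The high value thus came from cells with Y transcripts in a pool of 2 mice, and a difference between mice and one between genotypes cannot be told apart.

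The Hes5 value also depends on where the border between astrocytes and progenitors is drawn. Radial glia-like cells carry markers of both, and a progenitor was required to have an astrocyte score below 0.35, cell cycle markers and neural markers. Among all cells with neural markers, Hes5 was higher at higher astrocyte scores from 0.05 to 0.6. This set includes gated neuroblasts, which made up most cells below 0.1 and whose gate held 2.44 and 1.49 CPM of Hes5. Their part in the rise and in the values below 0.1 was not tested. Hes5 was 16.3 CPM in wild type and 3.10 CPM in the mutant at scores below 0.05, and 8.87 and 44.3 CPM at 0.05 to 0.1. It was 38.0 CPM in 19 wild-type cells and 503 CPM in 23 mutant cells at 0.1 to 0.2. It was 349 CPM in 9 cells and 923 CPM in 11 cells at 0.2 to 0.35, and 407 and 995 CPM in 16 cells each at 0.35 to 0.6. Above 0.6 only 6 wild-type cells (1147 CPM) and 1 mutant cell (899 CPM) remained. The mutant was higher from 0.05 to 0.6 and lower below 0.05, but the mutant values from 0.1 to 0.6 leaned on few cells. Single mutant cells held 76 and 34 Hes5 UMIs at 0.1 to 0.2, and 59, 38 and 24 at 0.2 to 0.35. A single mutant cell held 53 at 0.35 to 0.6, and a single wild-type cell held 20 at 0.2 to 0.35. Hes1 was absent below 0.2 in both libraries, while Notch2 was 4.75 and 33.7 CPM at 0.1 to 0.2 and 199.5 and 207 CPM at 0.2 to 0.35. The wild-type Notch2 value at 0.1 to 0.2 came from fewer than 3 UMIs, too few to compare the libraries there.

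**Figure D3:**
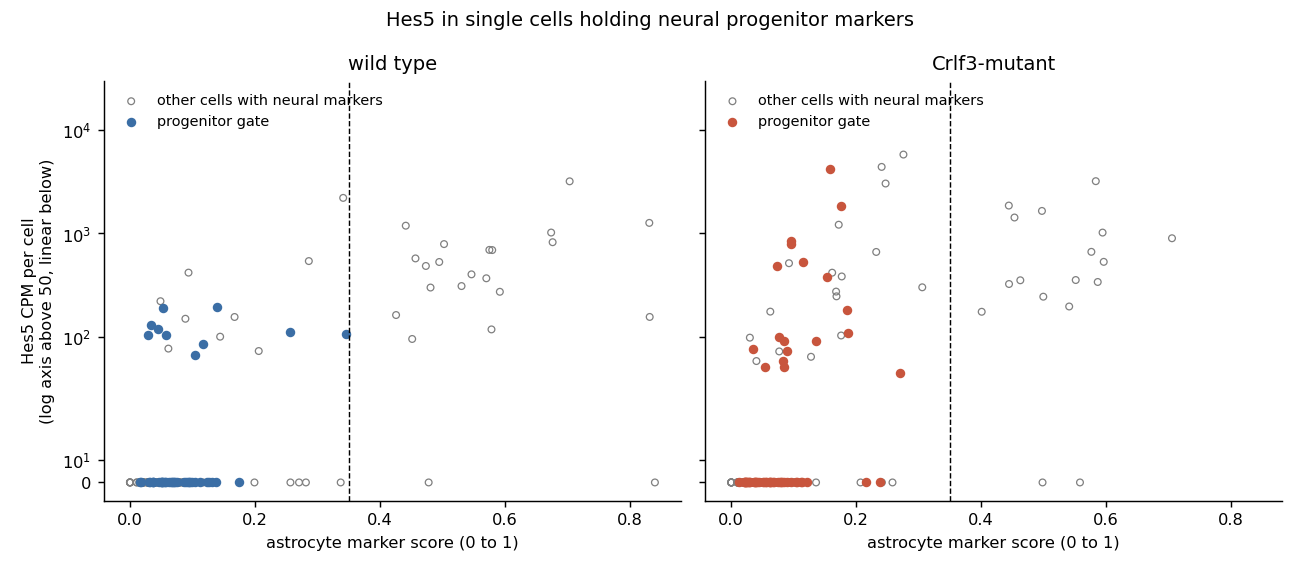
Hes5 CPM in single cells with neural progenitor markers (vertical axis, logarithmic above 50 and linear below) against astrocyte marker score, with wild type on the left and Crlf3-mutant on the right; filled points are in the progenitor gate and the dashed line is its upper limit of 0.35. The 5 mutant progenitors with at least 10 Hes5 UMIs had a median astrocyte score of 0.115, above the 0.0653 of the other mutant progenitors.

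Moving the upper limit of the astrocyte score changed the ratio. With cycling required, the log2 ratio was -2.02 at a limit of 0.05, from 7 UMIs in 12 wild-type cells and 1 UMI in 18 mutant cells. It was 1.01 at 0.1, 1.03 at 0.15, 2.42 at 0.2 and 2.26 at 0.35. Above 0.35 no cycling cell was added. Without the cell cycle requirement the ratio was 2.76 at 0.25 and fell to 1.15 with no limit, where wild type held 174 CPM in 85 cells and the mutant 398 CPM in 93 cells.

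**Figure D4:**
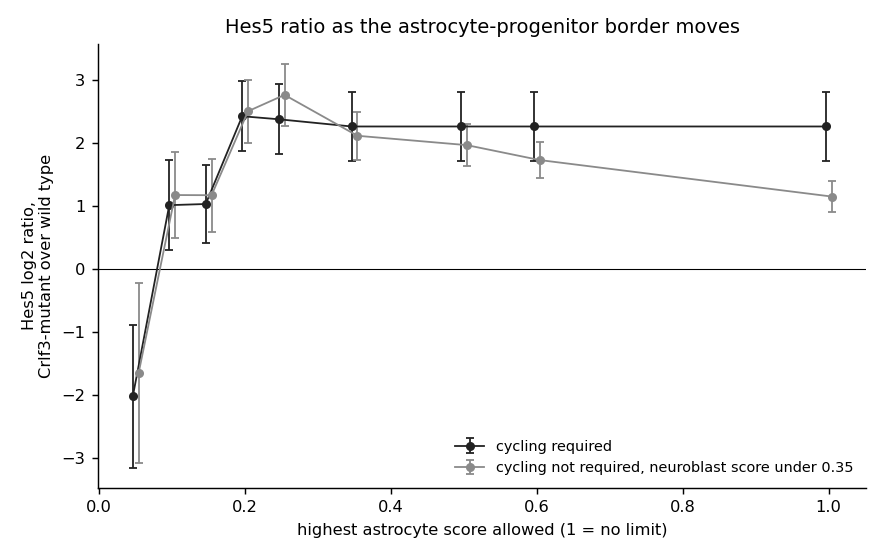
Hes5 log2 ratio, Crlf3-mutant over wild type (vertical axis), against the highest astrocyte score allowed for a progenitor; black points require cell cycle markers, grey points do not, bars are 95% counting intervals and the sets of cells are nested. The ratio is below 0 at a limit of 0.05 and above 0 at the other limits shown.

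Over the whole astrocyte gate Hes5 was lower in the mutant, with a log2 ratio of -0.28 (-0.38 to -0.18), and the direction differed along the neural score. In astrocytes with a neural score under 0.1, Hes5 was 332 and 303 CPM. At 0.1 to 0.2 it was 646 CPM in wild type and 384 CPM in the mutant. At 0.2 or more it was 643 CPM (528 to 775) in 22 wild-type cells and 991 CPM (838 to 1164) in 17 mutant cells, a log2 ratio of 0.62. These are the same cells as those with neural markers at astrocyte scores above 0.35, and not a further set. The 3 highest cells held 49.5% of the 109 wild-type UMIs and 60.4% of the 149 mutant UMIs. A single mutant cell held 53 of them. The counting intervals do not cover this clumping, so the higher mutant value rests on few cells, as in the progenitors.

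Clusters drew the border elsewhere. Cells clustered without reference to the gates gave a progenitor class of 70 and 91 cells, in which Hes5 stood at 53.2 CPM for wild type and 252 CPM for the mutant, a log2 ratio of 2.05. A separate cluster led by Fabp7, Hes5, Gfap and Hopx, genes known from radial glia-like cells, held 42 wild-type and 34 mutant cells. It was singled out because Hes5 leads it, so its level is a description: 1080 CPM in wild type and 629 CPM in the mutant. Of its cells 34 and 32 lay in the astrocyte gate and 0 in the progenitor gate. Counted with the progenitors, it brought Hes5 to 336 CPM in wild type and 315 CPM in the mutant, a log2 ratio of -0.087. Counted with the astrocytes, it gave 413 and 343 CPM, a log2 ratio of -0.26. The cluster was chosen by Hes5 and was higher in wild type, so counting it with the progenitors lowers their ratio by construction. The mutant excess of Hes5 in cluster progenitors was seen with these cells left out and not with them counted in, which describes the grouping only.

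Within the endothelium, Hey1 was higher in arterial than in capillary cells by more than the counting error in both libraries. Arterial endothelial cells (39 wild type, 42 mutant) held 380 and 365 CPM of Hey1 against 149 and 158 CPM in capillary cells (533 and 565), log2 differences of 1.29 (0.97 to 1.62) and 1.15 (0.85 to 1.46). Jag1 was 53.0 and 81.9 CPM in arterial cells against 36.4 and 41.6 CPM in capillary cells, log2 differences of 0.44 (-0.28 to 1.16) and 0.83 (0.26 to 1.41), an order that turned around when cells were thinned to 2000 UMIs, with values of -0.85 and -0.55. Dll4 was 137 and 164 CPM against 164 and 188 CPM, within counting error in each library (-0.73 to 0.25 and -0.60 to 0.23). Notch1 was 185 and 130 CPM against 119 and 120 CPM, log2 differences of 0.60 (0.16 to 1.03) in wild type and 0.11 (-0.35 to 0.58) in the mutant. Hes1 was lower in arterial cells of the mutant, at 167 CPM against 366 CPM, a log2 difference of -1.09 (-1.49 to -0.68). In wild type it was 327 against 408 CPM, a difference within counting error at -0.31 (-0.64 to 0.02). The 10 and 8 venous cells held no Hey1 UMI and 17 and 15 UMIs of Hes1.

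Smooth muscle cells (20 wild type, 31 mutant) and pericytes (100 and 131) had different receptors and ligands. Notch1 was 69.3 and 58.4 CPM in smooth muscle against 272 and 253 CPM in pericytes, log2 differences of -1.83 and -1.94. Jag1 was 139 and 138 CPM against 38.4 and 35.5 CPM, differences of 1.62 and 1.70. Hes1 was higher in smooth muscle, at 679 and 576 CPM against 405 and 326 CPM. Heyl was 201 and 171 CPM against 300.3 and 364 CPM, a log2 difference of -0.56 (-1.14 to 0.02) in wild type and -1.05 (-1.52 to -0.58) in the mutant. Notch3 was 360.4 and 392 CPM against 541 and 519 CPM. These splits are ranges of marker scores and their cells come from the same pools.

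**Figure D5:**
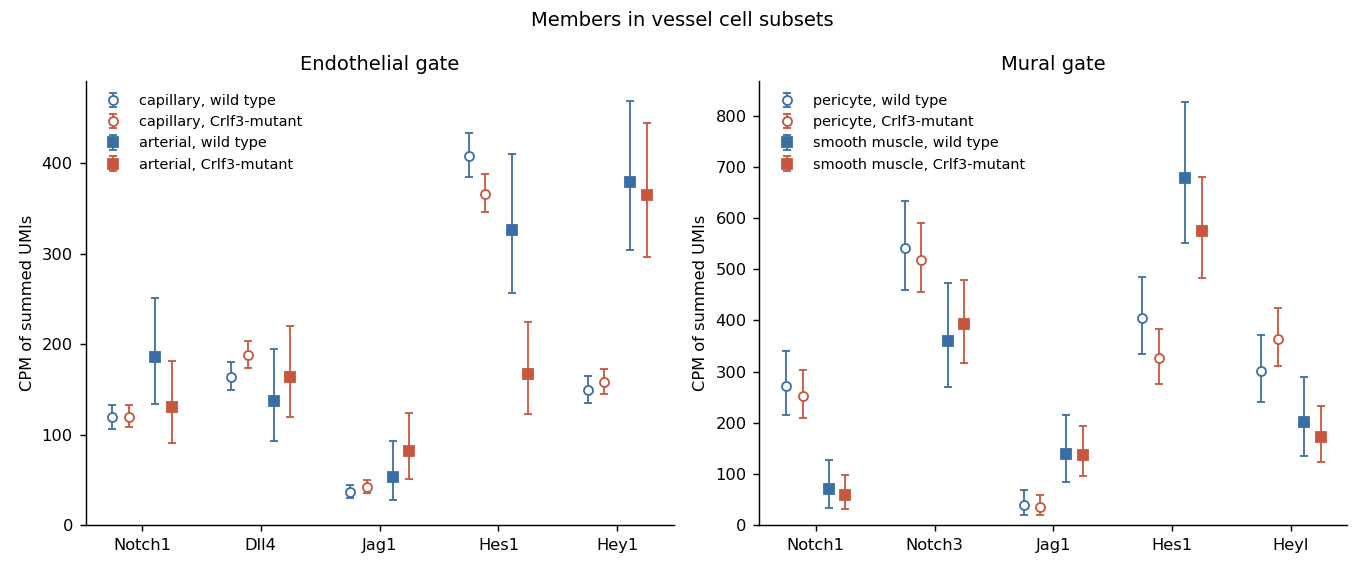
CPM of summed UMIs for 5 genes in capillary and arterial endothelial cells (left) and in pericytes and smooth muscle cells (right); blue is wild type, red is Crlf3-mutant, open circles are the first subset, filled squares the second, and bars are exact Poisson 95% intervals. Hey1 is higher in arterial cells, and Notch1 lower and Jag1 higher in smooth muscle, in both libraries.

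Neuroblasts were also split by lineage, and no Delta ligand differed beyond counting error in both libraries. Dll3, a Delta relative that acts within the cell, was 79.3 and 79.9 CPM in granule-lineage neuroblasts (87 and 110 cells) and 30.3 and 26.3 CPM in Dlx-expressing neuroblasts (18 and 26 cells), the latter from 3 and 6 UMIs. The log2 differences, Dlx-expressing over granule-lineage, were -1.15 (-2.42 to 0.12) and -1.31 (-2.19 to -0.43). Dll1 in Dlx-expressing cells was 70.6 CPM for wild type and 13.1 CPM for the mutant, from 7 and 3 UMIs, and 6.95 and 4.59 CPM in granule-lineage cells, log2 differences of 2.25 (1.18 to 3.32) and 0.66 (-0.34 to 1.67).

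Of 49 other genes of the pathway, 17 were measured in astrocytes, 20 each in progenitors, neuroblasts and endothelial cells, and 13 in mural cells. None was at least 1.5 times apart in any of these classes, and their median log2 ratios lay between -0.04 and 0.07. Over all measured genes the shares apart were 0.166%, 4.6%, 1.16%, 0.0281% and 5.29% in astrocytes, progenitors, neuroblasts, endothelial and mural cells. With shares this low, finding none among so few genes is no result about the pathway. In astrocytes the highest were Lfng, a glycosyltransferase that modifies Notch, at 300.1 and 217 CPM, the feedback inhibitor Nrarp at 235 and 276 CPM, and Dtx3 at 227 and 261 CPM. In progenitors they were Hes6, a Hes relative that promotes neurogenesis, at 299 and 366 CPM, the corepressor Ncor1 at 246 and 261 CPM, and Snw1 at 173 and 204 CPM. Neuroblasts had Ncor1 at 362 and 339 CPM, Dtx3 at 185 and 213 CPM, and Snw1 at 155 and 153 CPM. Endothelial cells had Ncor1 at 215 and 223 CPM, Bhlhe40 at 216 and 199 CPM, and the receptor-cleaving protease Adam10 at 192 and 201 CPM. Mural cells had Dtx3 at 571 and 434 CPM, Nrarp at 285 and 267 CPM, and Ncor1 at 223 and 247 CPM.

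The genes with the most similar levels over the 5 classes in 2 libraries were found among 6548 candidates by Pearson correlation of log2 CPM over these 10 points, which share libraries and gates. Notch3 was nearest to Ggt1 (r = 0.999), Ccdc3 and Cped1, and Heyl to the same genes led by Ccdc3 (r = 0.999). Hes5 was nearest to Sox21 (r = 0.985), Aldh5a1 and Phgdh. Genes near Dll4 included St3gal1 (r = 0.987) and Rai14, and Hey1 was nearest to Nebl (r = 0.990), Pdgfd and Cpt2. Dll1 was nearest to Nup85 (r = 0.987), Rad50 and Rad21, the last a part of the cohesin ring that holds sister chromosomes. Hes1 was nearest to Tap2 (r = 0.993), Sparc and Vamp8, and Jag1 to Nr4a1 (r = 0.985), S100a11 and Svil. Notch1 was nearest to Rdm1 (r = 0.980), Pkm and Kdelr2, and Notch2 to Isca2 (r = 0.974), Ndufb11 and Tpi1. With 5 classes, a high r shows only that a gene peaks in the same classes.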

How the data were processed

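Both deposited files are tables of unnormalized UMI counts for each gene in each cell, made by the authors with Cell Ranger 6.1.1 on an mm10 reference, per the labels' protocols; Partek is also named in the submitters' processing notes, without a role. Libraries held 51328178 (wild type) and 43103469 (mutant) UMIs. Filtering required 500 genes and 1000 UMIs per cell and no more than 10% of UMIs from mitochondria, after which doublets called by Scrublet in scanpy 1.11.5 were removed (137 and 78 cells). Marker scores, each the mean of capped log values, gave the classes at a score of 0.35, or 0.2 for each of the cycling and neural parts of the progenitor markers; the markers were listed first and the scoring rule was set after reading the files. Counts were summed per class and library and divided by the class's total to give CPM, with exact Poisson intervals and a pseudocount of 10 CPM for ratios. The ratio step was tested on class sums simulated with Poisson error alone, which hold no clumping of UMIs in few cells. No test was run, since each genotype is 1 library. Alternatives changed the cell filter, doublets, gates, clusters, pseudocount, thinning and low-value filter. Named genes were all members, the 3 highest other pathway genes per class, and the 3 nearest patterns per member, of which 1 is not reported here. The members and gene lists were chosen with earlier results of these data known, and the immediate early gene list and the splits by those genes, by Hes5 UMIs and by the Hes5 cluster were added after seeing the data. Positions are from GENCODE vM21 on mm10, and promoter windows from RefSeq.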

Additional observations from a re-analysis of the deposited data

Results flagged for a closer look

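Hes5 moved in opposite directions in neighbouring classes. Its log2 ratio, mutant over wild type, was 2.26 in progenitors and -0.28 in astrocytes, with counting intervals on opposite sides of 0. The difference between the classes was not tested, since each genotype is 1 library, and 5 of 59 mutant progenitors carried most of the Hes5 UMIs. Within the astrocyte gate, cells with a neural score of 0.2 or more had a log2 ratio of 0.62. That value came from 22 wild-type and 17 mutant cells, and the 3 highest mutant cells held 60.4% of the mutant UMIs. They are the cells already described at astrocyte scores above 0.35, so they add no separate view.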

How the results depend on the processing

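No paired analysis was possible because each genotype has 1 library. The count of members at least 1.5 times apart in astrocytes went from 1 to 0 with clusters at resolution 1.0 and 0.5, per-cell means, thinning, cells holding Xist but no Y transcript (Xist cells), and a pseudocount of 50 CPM. In progenitors it went from 2 to 1 with both cluster sets, the looser gate, per-cell means, cells holding Y transcripts but no Xist (Y cells) and a pseudocount of 50 CPM, and to 0 with thinning and with Xist cells, where fewer genes passed the low-value filter. In mural cells it went from 0 to 1 with Xist cells and with a filter of 20 CPM and 10 UMIs, which admits Notch2 (41.3 and 15.8 CPM). For other pathway genes the count went from 0 to 1 in progenitors (stricter gate, per-cell means, thinning, Xist cells, pseudocount 1 CPM), to 2 there with Y cells, to 1 in neuroblasts (per-cell means, thinning, Y cells), and in mural cells to 1 with Xist cells, 2 with Y cells and 4 with the filter of 20 CPM and 10 UMIs. The Hes5 log2 ratio in progenitors was 3.28 with thinning, where wild type held 11.1 CPM, the level of 1 UMI, 0.22 in Xist cells, 3.01 in Y cells and 1.54 with a pseudocount of 50 CPM. Chosen after seeing the data, it was 0.21 without cells holding at least 10 Hes5 UMIs and -0.087 with the Fabp7 and Hes5 cluster added. The arterial over capillary log2 difference of Jag1 in the mutant was -0.55 with thinning. Of 242 log2 ratios of single genes under alternatives, 218 stayed within the counting interval of the main value. Depth limits the progenitor ratios, which rest on 45 and 59 cells.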

Other observations

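Ependymal cells, which line the ventricle, held Hey1 at 155 CPM in wild type (123 to 193, 52 cells) and 108 CPM in the mutant (68.7 to 163, 21 cells), and Hes1 at 86.3 and 28.3 CPM, from 45 and 6 UMIs. Border macrophages held Notch2 at 55.2 and 89.2 CPM, and microglia at 39.4 and 36.0 CPM. Choroid plexus cells held Notch2 at 27.6 and 30.6 CPM with Notch1 at 1.86 and 2.22 CPM.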
